A study of Sus scrofa with 24 samples.

Results

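Endocannabinoids are lipid messengers made on demand from membrane phospholipids, and both main ones carry arachidonic acid. In hippocampal neurons 2-arachidonoylglycerol (2-AG) is made on the receiving side of a synapse, travels backwards across the cleft and acts on the cannabinoid receptor CB1, which lowers transmitter release from the sending terminal. The other messenger, anandamide, is released from N-acylated phospholipids and acts on the same receptor. The 8 genes described here were chosen by symbol, out of 38882 genes listed in the files, and cover the steps of this cycle. CNR1 encodes CB1. DAGLA and DAGLB encode the diacylglycerol lipases that make 2-AG. MGLL encodes monoacylglycerol lipase, which with ABHD6 and ABHD12 breaks 2-AG down. NAPEPLD encodes a phospholipase that releases anandamide, and FAAH encodes the hydrolase that degrades it.

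Hippocampi of 24 piglets were sequenced at 14 days of age, from 12 litters of the cross PIC Camborough (dam) x PIC 359 (sire). Each litter gave one piglet born small for gestational age (SGA) and one sex-matched sibling born appropriate for gestational age (AGA), and both siblings received the same formula. The control (CON) formula supplied its fat as triglyceride oils. In the hydrolyzed fat (HF) formula a part of the fat was given as free fatty acids, monoacylglycerol and lecithin. The 4 groups (AGA CON, SGA CON, AGA HF, SGA HF) held 6 piglets each, came in 2 cohorts and carried no transgene. SGA piglets were naturally small at birth, so the groups differ in prenatal growth and not in one known agent. The comparisons ask whether birth size, diet or both together alter the transcripts of this cycle in the hippocampus.

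The libraries held between 6017336 and 9284355 reads assigned to genes (median 7346072.5). Taken as the limit that a count of 0 allows, 3 reads corresponded to 0.323 to 0.499 CPM on these totals before normalization. All other CPM values are reads scaled to the normalized total of each library. That limit covers counting error only. Tissue identity was checked with marker lists. Markers of neurons (4 of 5 listed in the files), glutamatergic neurons (3 of 4) and dentate granule neurons (3 of 3) passed the filter on low counts, as did 3 of 4 striatum markers (all but DRD1) and 2 of 3 thalamus markers (all but GBX2). The summed dentate granule markers had medians of 78.3 CPM in AGA and 74.2 CPM in SGA piglets, and the summed striatum markers 66.6 and 67.5 CPM, so these lists did not set the hippocampus apart from its neighbours. The summed neuron markers stood at 2289.9 CPM in AGA CON replicate 2 and 2680.4 CPM in AGA HF replicate 4, apart from 3933 to 4861 CPM in the other 22 libraries. The DAGLA differences and the DAGLA to MGLL ratio are given with and without them. In bulk tissue, fewer cells of a type and less RNA per cell cannot be told apart.

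Of the 8 genes, 7 had reads and all 7 passed the filter of 1 CPM in at least 3 libraries. Their levels were compared as CPM per kilobase of annotated exon, which takes account of exon length when genes are set side by side. The libraries were made from polyA-selected RNA. The study's methods report a reduced average RNA quality number, which they put down to pre-spliced RNA. Whether RNA quality let reads cover long and short genes evenly was not tested. In CPM not divided by exon length, the means were 331 for MGLL, 265 for DAGLA and 224 for ABHD12. The order of levels below therefore holds per kilobase of annotated exon only. ABHD12, a serine hydrolase of 2-AG that also acts on lysophospholipids, was the most abundant, at 139.9 ± 14.2 CPM per kilobase (SD, n = 24), a level above that of 95.9% of the genes tested. MGLL, the main 2-AG hydrolase of nerve terminals, followed at 82.0 ± 9.43 CPM per kilobase. Each library gave ABHD12 a higher level than MGLL, and MGLL a higher level than the next gene.

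DAGLA, the lipase that makes most 2-AG in the adult brain, and FAAH both stood at 43.8 CPM per kilobase (SD 7.05 and 5.64, n = 24). DAGLA exceeded FAAH in 10 of 24 libraries, so their order could not be told. ABHD6, a hydrolase that meets 2-AG on the side of its synthesis, was lower at 32.5 ± 3.37 CPM per kilobase, and FAAH exceeded it in 23 of 24 libraries. DAGLB, the second diacylglycerol lipase, reached 9.50 ± 1.28 CPM per kilobase and lay below DAGLA in all 24 libraries. Of the pair of lipases that make 2-AG, DAGLA thus carried the higher transcript level.

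**Figure D1:**
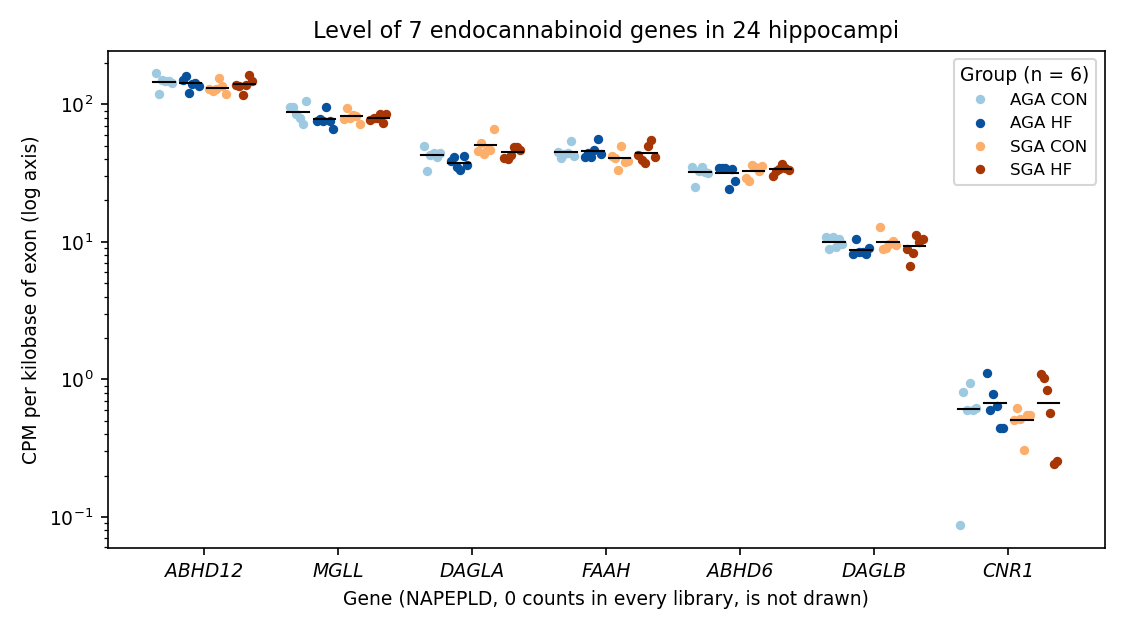
Level of each gene in CPM per kilobase of exon (log axis) in the 24 libraries. Points are libraries coloured by group (n = 6 each) and bars are group means. ABHD12 lies highest, DAGLA and FAAH share one level, and CNR1 lies far below the 6 enzymes, with wide scatter.

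CNR1 was at the other end, at 0.615 ± 0.265 CPM per kilobase (SD, n = 24), above only 11.7% of the genes tested. It had 2 to 24 reads per library (median 13), reached 1 CPM in 20 of 24 libraries, and in AGA CON replicate 1 its 2 reads (0.256 CPM) lay under the limit of 3 reads. CB1 is known as an abundant receptor of the hippocampus, concentrated in terminals of cholecystokinin interneurons, and the low value here concerns reads assigned to the annotated gene (gene 100520160, chromosome 1 from 63201796 to 63224939, minus strand, 5 exons, 2947 bases of exon, build Sscrofa10.2). Whether that annotation holds the whole transcript was not tested. Its coefficient of variation over the 24 libraries was 43.1%, of which counting alone would give 27.3%, whereas the 6 enzymes with reads varied by at most 16.1%. For CNR1, only large differences could therefore be detected.

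NAPEPLD (gene 100737731, chromosome 9 from 113620593 to 113632997, minus strand, 3 exons, 4347 bases of exon) had 0 reads in all 24 libraries. It lay in a run of 7 consecutive genes, from 113496687 to 113816855, that all had 0 reads, FBXL13 and ARMC10 among them. The next gene along (100514175, from 113817888 to 113870963, minus strand, 6 exons) had 110 reads over all libraries, and 2 of the 3 NAPEPLD exons had an exon of the same length in it. No other gene of the cycle had a neighbour at 0 reads within 100 kilobases. The count of 0 is thus shared by a whole stretch of the assembly and was not taken as a measure of NAPEPLD expression, and its cause was not tested. Anandamide release could not be followed through this gene.

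Differential expression was tested with edgeR across 16326 genes, with sex and 5 surrogate variables (estimated nuisance factors) in the fit and the FDR taken over 7 contrasts together. A gene was called at an FDR-adjusted p under 0.4, the permissive threshold that the study's methods give for the genes of its heat map. In SGA compared to AGA piglets, 0 of the 7 genes tested were called, where 78 of all genes (0.478%) were. At an unadjusted p under 0.05, 1 of the 7 differed, against 10.6% of all genes, and DESeq2 called 1 (1.29% of all genes) and limma voom 0 (0.325% of all genes). The median log2 fold change of the 7 was 0.0067, beside -0.0023 over all genes. The gene that stood out was DAGLA.

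DAGLA (gene 100520824, chromosome 2 from 9351888 to 9378424, minus strand, 21 exons, 6065 bases of exon) had a lowest, median and highest level of 198, 264 and 302 CPM in AGA CON piglets and 263, 281 and 403 CPM in SGA CON piglets. On the HF diet the same values were 202, 227 and 255 CPM in AGA and 243, 272 and 297 CPM in SGA piglets. The groups overlapped on both diets, though on HF only 2 SGA piglets lay below the highest AGA piglet. Means were 258 ± 34.1 and 304 ± 51.7 CPM (SD, n = 6) on CON, and 229 ± 21.2 and 271 ± 23.9 CPM (SD, n = 6) on HF.

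Between littermates, DAGLA was higher in the SGA piglet in 10 of 12 pairs, which 4.44% of all genes matched or exceeded. This held in 5 of 6 CON and 5 of 6 HF litters, and in 4 of 6 litters of cohort 1 and 6 of 6 of cohort 2. For these splits the share of all genes was not counted. The mean difference was 0.24 ± 0.26 on the log2 CPM scale (SD, n = 12 pairs; exact two-sided sign-flip permutation test, p = 0.0078), as the plot of littermate pairs shows. It was one of 21 exact tests of size, diet and interaction over the 7 genes. Leaving out each litter in turn kept the difference between 0.20 and 0.27, with a highest exact permutation p of 0.0156. Without litters 4 and 7, whose AGA piglets gave the libraries with low neuron markers and the lowest DAGLA values, it was 0.16 over 10 pairs (exact permutation p = 0.0312). With litter 12 also left out, whose SGA piglet had the highest level, it was 0.12 over 9 pairs (exact permutation p = 0.0625).

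**Figure D2:**
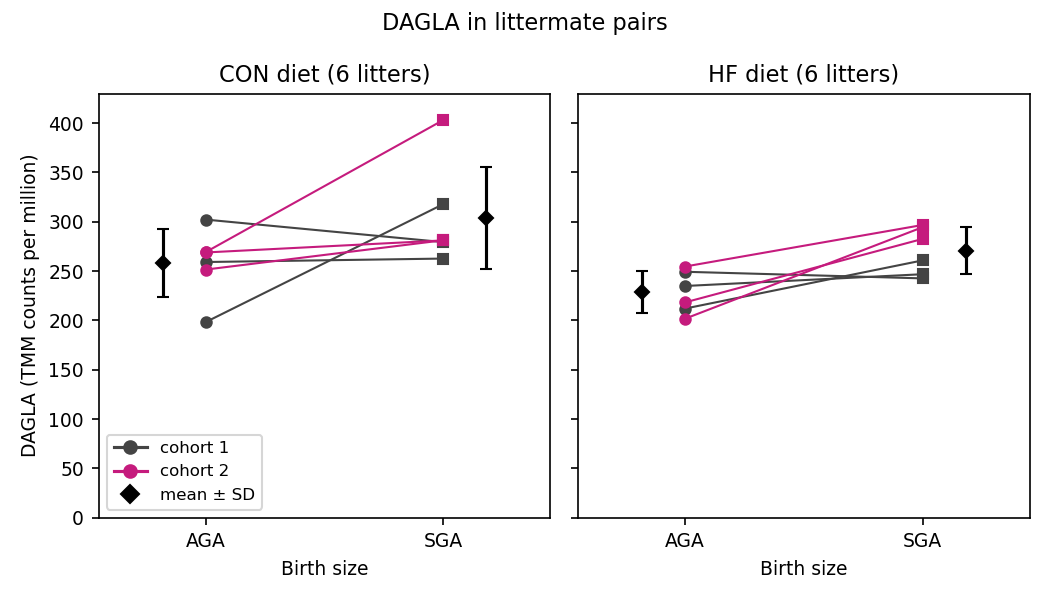
DAGLA in TMM-normalized CPM for the AGA and SGA piglet of each litter, joined by a line, on each diet and coloured by cohort. Diamonds give the group mean ± SD (n = 6). The line climbs from AGA to SGA in 10 of 12 litters, with the steepest CON lines from the lowest AGA and to the highest SGA value.

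In the edgeR fit the DAGLA size difference was 0.17 on the log2 scale (SE 0.047), the 154th smallest p of 16326 genes, with an FDR-adjusted p of 0.457. With litter as a block it was 0.23 and was called, at an FDR-adjusted p of 0.382 by edgeR (2.57% of all genes were called in that fit). DESeq2 also called it (FDR-adjusted p = 0.214), and limma voom did not (FDR-adjusted p = 0.497). Leaving out each library in turn gave edgeR FDR-adjusted p values from 0.171 to 0.636. DAGLA was called in 6 of these 24 fits, without AGA CON replicate 2 (0.261), AGA HF replicate 3 (0.361), SGA HF replicate 2 (0.354), SGA HF replicate 3 (0.276), SGA CON replicate 4 (0.171) and SGA CON replicate 6 (0.238). With both AGA libraries of low neuron markers left out, the estimate was 0.16 and the FDR-adjusted p 0.533. Within cohorts the edgeR estimate was 0.13 in cohort 1 and 0.32 in cohort 2. The larger of the 2 size contrasts by diet was on HF, at 0.24 (SE 0.066, FDR-adjusted p = 0.429 by edgeR), where 0 of 7 genes were called against 0.288% of all genes. On CON it was 0.10, and there too 0 of 7 were called, against 0.129% of all genes.

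Markers of other cells moved between the same littermates. The 5 oligodendrocyte markers used, the myelin gene MBP among them, summed to 11502 to 22045 CPM (median 17144) in AGA and to 9650.1 to 19490.2 CPM (median 13411) in SGA piglets, and the sum was lower in the SGA piglet of 11 of 12 pairs. Of all genes, 1.32% were lower in SGA in at least 11 of 12 pairs. The 11 pairs included 9 of the 10 pairs with higher DAGLA in the SGA piglet. The sum of glutamatergic neuron markers was higher in the SGA piglet in 10 of 12 pairs, which 4.44% of all genes matched or exceeded. Of these pairs, 9 had higher DAGLA in the SGA piglet. None of these markers was listed at 0. Of the 5 oligodendrocyte markers 0 were called, with 5 of 5 estimates below 0 and 1 at an unadjusted p under 0.05. Of the 3 glutamatergic markers 1 was called, CAMK2A, higher in SGA piglets, and 2 of 3 estimates were above 0. At an unadjusted p under 0.05, 2 of the 3 were higher. Of all genes, 0.478% were called for size and 10.6% had an unadjusted p under 0.05. The summed general neuron markers were higher in the SGA piglet in 6 of 12 pairs. The summed thalamus markers were higher in 9 of 12, which 12.3% of all genes matched or exceeded. The part of these cell populations in the DAGLA difference was not tested.

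The other 2-AG enzymes gave small size differences. DAGLB (gene 100627176, 85 to 178 reads per library, on an unplaced scaffold from 3120 to 25737) had medians of 15.9 CPM in AGA and 16.9 CPM in SGA piglets, and was higher in SGA in 7 of 12 pairs (mean 0.03 ± 0.27, SD, n = 12; exact permutation p = 0.753). MGLL (gene 100233193, chromosome 13 from 79998289 to 80086913, plus strand) had medians of 317 and 321 CPM and was higher in 6 of 12 pairs (mean -0.03 ± 0.24, SD, n = 12; exact permutation p = 0.689). ABHD6 (gene 100515411, chromosome 13 from 43989292 to 44015528, plus strand) had medians of 66.6 and 67.6 CPM and was higher in 8 of 12 pairs, as were 25.6% of all genes (mean 0.07 ± 0.22, SD, n = 12; exact permutation p = 0.308). None of these 3 differences passed its test. ABHD6 was higher in SGA in 6 of 6 litters of cohort 2 and 2 of 6 of cohort 1. The share of all genes with such a split was not counted, and the difference between cohorts was not tested. The 2 lowest ABHD6 levels, 48.9 and 50.2 CPM, belonged to the AGA libraries with low neuron markers.

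ABHD12 (gene 100621636, on an unplaced scaffold from 26916 to 49725) ran the other way. Its medians were 232 CPM in AGA and 218 CPM in SGA piglets, and it was lower in SGA in 8 of 12 pairs, as were 21.2% of all genes (mean -0.08 ± 0.17, SD, n = 12; exact permutation p = 0.14). By edgeR the size difference was -0.10 (SE 0.049, FDR-adjusted p = 0.747), and on CON alone -0.16 (SE 0.067, FDR-adjusted p = 0.679). Leaving out each library in turn moved the ABHD12 size estimate between -0.12 and -0.0024, the latter without SGA HF replicate 3. FAAH (gene 396949, chromosome 6 from 152539044 to 152558004, minus strand, 16 exons) had medians of 138 and 129 CPM and was also lower in SGA in 8 of 12 pairs (mean -0.10 ± 0.19, SD, n = 12; exact permutation p = 0.109). CNR1 had medians of 1.79 and 1.63 CPM and was lower in 9 of 12 pairs, as were 10.3% of all genes (mean -0.09 ± 0.77, SD, n = 12; exact permutation p = 0.689). The widest CNR1 difference, 1.76, came from litter 2, whose AGA piglet had the 2 reads noted above. In cohort 2 the SGA piglet was the lower in 6 of 6 litters, a split for which the share of all genes was not counted. None of these 3 size differences passed its test.

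**Figure D3:**
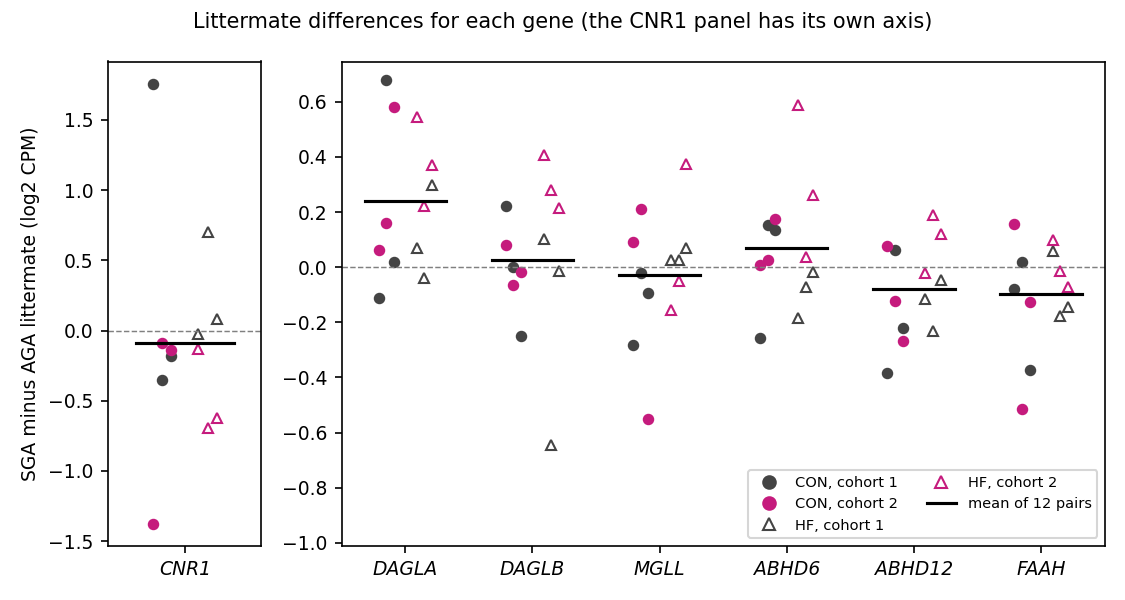
SGA minus AGA difference in log2 CPM for each of the 12 litters and 7 genes, by diet (filled circles CON, open triangles HF) and cohort (colour). Bars are means of 12 pairs, and the CNR1 panel has an axis of its own. DAGLA is above 0 in 10 of 12 litters, and the points of the other genes lie on both sides of 0.

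As a ratio within a library, DAGLA per kilobase over MGLL per kilobase compares synthesis with breakdown of 2-AG at the transcript level. It ran from 0.341 to 0.582 (median 0.517) in AGA and from 0.502 to 0.925 (median 0.552) in SGA piglets, and was higher in the SGA piglet in 8 of 12 pairs. Without the AGA libraries of low neuron markers it ran from 0.422 to 0.582 (median 0.525, n = 10) in AGA piglets, and was higher in the SGA piglet in 6 of 10 pairs. The ratio was chosen after the levels were seen and is given with no test.

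For diet, the litter was the unit of the exact permutation test and of the fit on summed littermate counts, since both siblings received the same formula. The other diet fits had no litter term, so siblings counted as separate replicates. In HF compared to CON piglets 0 of 7 genes were called by edgeR, where 26 of all genes (0.159%) were, with 0 by DESeq2 and by limma voom. At an unadjusted p under 0.05, 1 of the 7 differed, against 7.09% of all genes, and the median log2 fold change was 0.05 beside 0.0020 over all genes. That gene was again DAGLA. Over litter means on the log2 CPM scale it was 7.96 ± 0.078 on HF and 8.12 ± 0.14 on CON (SD, n = 6 litters each), a difference of -0.16 (exact two-sided permutation test, p = 0.0238). Of the 6 HF litters, 5 lay below the lowest CON litter. The edgeR estimate was -0.12 (SE 0.048, FDR-adjusted p = 0.663), and with littermate counts summed it was -0.16 with an FDR-adjusted p of 0.999. DAGLA was called for diet without AGA CON replicate 2 (FDR-adjusted p = 0.265) and without SGA CON replicate 4 (FDR-adjusted p = 0.31). Within cohorts the estimates were -0.15 and -0.19. Without litter 5 the exact permutation p was 0.0519, and without any other single litter it stayed between 0.0065 and 0.0476. With both AGA libraries of low neuron markers left out, the edgeR estimate was -0.15 (FDR-adjusted p = 0.58), and without their litters 4 and 7 the difference of litter means was -0.19 (5 against 5 litters, exact permutation p = 0.0238). The summed glutamatergic neuron markers averaged 6607 CPM over HF litters and 7116 CPM over CON litters, and 4 of the 6 CON litters lay above the highest HF litter, while the lowest of the 12 was also on CON. The part of these neurons in the DAGLA diet difference was not tested.

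DAGLB and MGLL, the partner lipase and the main hydrolase of 2-AG, leaned the same way with diet. DAGLB litters averaged -0.15 on HF minus CON in log2 CPM (exact permutation p = 0.0519), and MGLL litters -0.11 (exact permutation p = 0.117), with 3 of 6 HF litters below the lowest CON litter for each. ABHD6 differed by 0.01 (exact permutation p = 0.963), ABHD12 by 0.02 (exact permutation p = 0.755), FAAH by 0.08 (exact permutation p = 0.42) and CNR1 by 0.22 (exact permutation p = 0.519). None of these 6 differences passed its test. Among AGA piglets DAGLA was lower on HF by edgeR at -0.19 (SE 0.066, FDR-adjusted p = 0.586), and among SGA piglets ABHD12 was higher at 0.14 (SE 0.067, FDR-adjusted p = 0.717). In these contrasts 0 of 7 genes were called, against 0.0674% of all genes in AGA and 0.0919% in SGA piglets, and at an unadjusted p under 0.05 each had the 1 gene given, against 6.09% and 5.16% of all genes.

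The interaction asks whether the size difference depended on diet. By edgeR 0 of 7 genes were called, with 0 at an unadjusted p under 0.05 (4.01% of all genes) and 0 by DESeq2 and by limma voom, where 8 of all genes (0.049%) were called. All 7 estimates were above 0, from 0.04 for DAGLB to 0.14 for MGLL, as were 50.7% of all genes. Estimates from one set of libraries are not independent. For DAGLA the size difference averaged 0.23 on CON and 0.24 on HF between littermates, a difference of 0.01 (exact two-sided permutation test over litters, p = 0.935), whereas edgeR with surrogate variables put the interaction at 0.14 (SE 0.089) and with litter as a block at 0.01. The lowest exact permutation p of the 7 genes was 0.225, for ABHD12, which edgeR called only without SGA HF replicate 3 (0.25, FDR-adjusted p = 0.381).

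**Figure D4:**
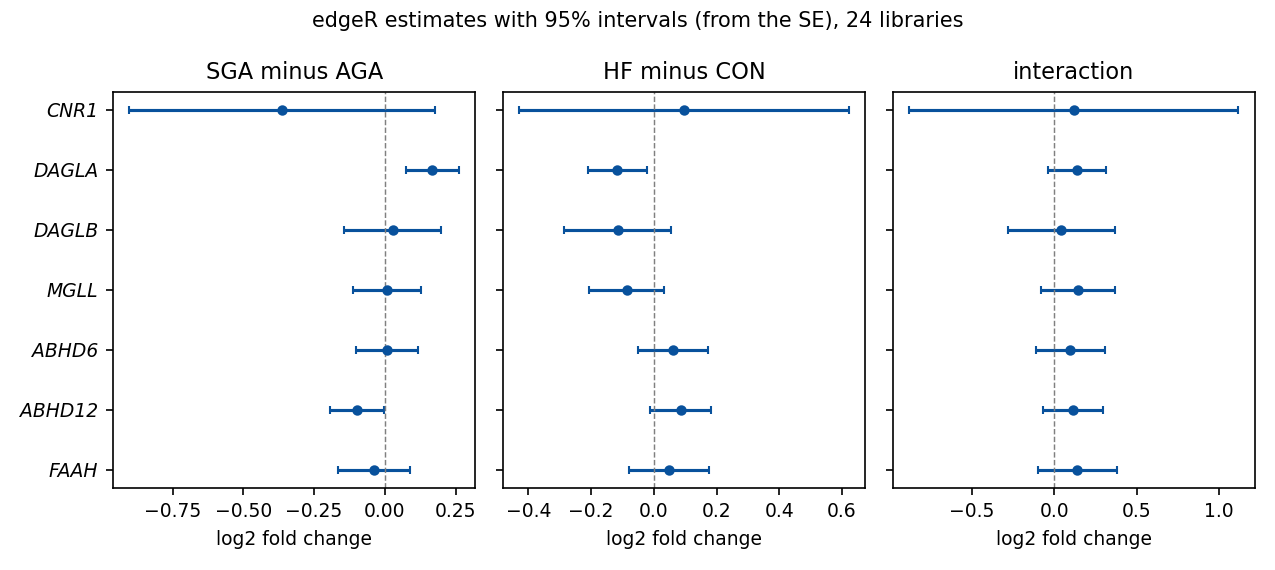
edgeR log2 fold changes for the 7 genes with reads, for SGA minus AGA, HF minus CON and their interaction, from 24 libraries. Horizontal bars span 1.96 SE to each side, an approximate 95% interval that is narrower than the edgeR test implies. The ABHD12 size bar ends just below 0 (-0.0019), though its unadjusted p by edgeR is 0.058. The 3 panels have different scales. DAGLA lies above 0 for size and below 0 for diet, no gene was called, and CNR1 has the widest interval.

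FAAH, the anandamide hydrolase, had an intraclass correlation between littermates of 0.459 over 12 pairs, beside 0.37 for ABHD12, 0.323 for CNR1 and values from -0.139 to 0.087 for the other 4. Differences between these values were not tested, and littermates share a cohort. Litter means of FAAH ran from 120 to 136 CPM in cohort 1 and from 127 to 174 CPM in cohort 2, with 4 of the 6 cohort 2 litters above every cohort 1 litter. In a fit with group, sex and cohort, FAAH was 0.18 higher in cohort 2 on the log2 scale (SE 0.068, FDR-adjusted p = 0.379 by edgeR) and was called, 1 of 7 genes against 6.6% of all genes. That fit had no litter term, so both siblings of a litter counted as replicates of their cohort. Over litter means the exact permutation p was 0.0216, one of 14 tests of cohort and sex. The edgeR call was lost in 14 of the 24 fits that left out one library. Between the same cohorts the summed microglia markers had medians of 105.6 and 171.2 CPM and the summed oligodendrocyte markers 14138 and 16615 CPM (cohort 1 and 2), and their part in the FAAH difference was not tested. For sex, 0 of 7 genes were called, against 1.46% of all genes, and the lowest exact permutation p was 0.335 (DAGLB).

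**Figure D5:**
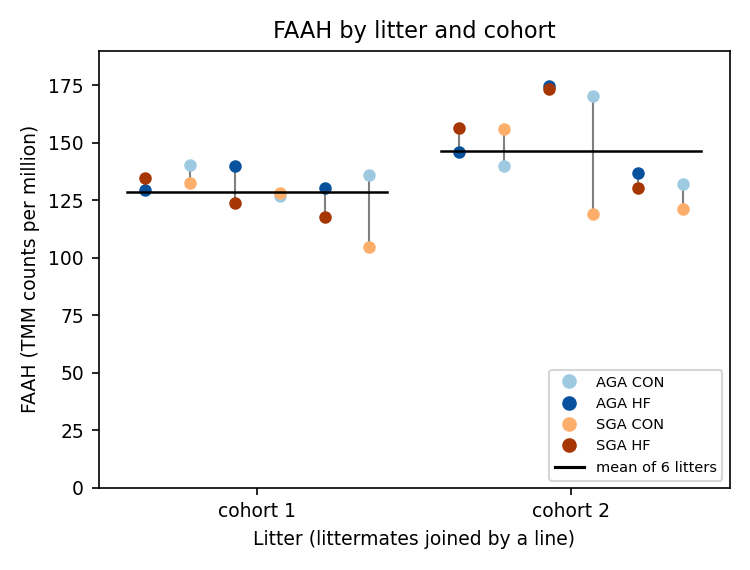
FAAH in TMM-normalized CPM in the 24 piglets, by litter (littermates joined) and cohort, coloured by group. Horizontal bars are means of 6 litters. Cohort 2 includes the litters with the highest level, one of them with both piglets at 173 to 175 CPM.

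Within groups the 7 genes did not vary as one unit. After group means were removed, the highest Spearman correlation over the 24 libraries was 0.544, between DAGLB and ABHD12, and CNR1 ran against DAGLB (-0.639), ABHD12 (-0.544) and FAAH (-0.518). These values describe libraries that share litters, cohort and depth. The genes most like each member by the same measure were PLCL2 (0.878) and FLOT2 (0.877) for DAGLA, PDXP (0.818) and LRRC41 (0.747) for DAGLB, and ADGRG1 (0.752) and TRIM35 (0.747) for MGLL. For ABHD6 they were FAM174B (0.796) and GOT1 (0.779), for ABHD12 PGP (0.827) and ACTR1A (0.826), and for FAAH TSTA3 (0.822) and EIF3G (0.763). The counterparts of CNR1 were ATRX (0.857) and PLXNC1 (0.813).

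The wider pathway was read from 6 lists of genes around the cycle. The counts of each list stand beside 0.478%, 0.159% and 0.049% of all genes called for size, diet and interaction, and 10.6%, 7.09% and 4.01% at an unadjusted p under 0.05. Of 7 other cannabinoid-sensitive receptors, only the channel TRPV2 passed the filter on low counts, while CNR2 (the CB2 receptor), GPR55, GPR18, GPR119, TRPV1 and TRPV4 did not. TRPV2 differed by 0.02 for size, -0.02 for diet and 0.07 for the interaction.

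Among 11 other enzymes of anandamide handling, 9 were tested and 0 were called for size, diet or interaction (edgeR). At an unadjusted p under 0.05 the counts were 0, 0 and 1. The closest gene for size was the lipid phosphatase INPP5D (0.13, SE 0.099), for diet the lysophospholipase D GDPD3 (-0.46, SE 0.22, at about 2 CPM) and for the interaction ABHD4, a hydrolase of an alternative route to anandamide (0.33, SE 0.12, FDR-adjusted p = 0.62). ABHD4 was well expressed, at 137 CPM in AGA and 143 CPM in SGA piglets.

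Of 16 genes that supply diacylglycerol, the substrate of DAGLA, 14 were tested and 0 were called. At an unadjusted p under 0.05, 1 was higher and 0 lower for size, 1 higher and 1 lower for diet, and 0 higher and 1 lower for the interaction. CHRM1, the muscarinic receptor M1 that activates phospholipase C, averaged 720 CPM in SGA and 635 CPM in AGA piglets (0.11, SE 0.037, FDR-adjusted p = 0.581 by edgeR). PLCB3, a phospholipase C, had the smallest p for diet, with 54.5 CPM on HF and 62.5 CPM on CON (-0.27, SE 0.07, FDR-adjusted p = 0.421). HOMER1, a scaffold of group I metabotropic glutamate receptors, had the smallest p for the interaction (-0.78, SE 0.36) at about 2 CPM.

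All 17 partners and effectors of CB1 were tested and 0 were called. GNAO1, the alpha subunit of the Go protein that CB1 couples to, averaged 885 CPM in SGA and 785 CPM in AGA piglets (0.11, SE 0.038, FDR-adjusted p = 0.574). ADCY5, an adenylyl cyclase, had the smallest p for diet (0.11, SE 0.038, FDR-adjusted p = 0.564 by edgeR). The potassium channel subunit KCNJ6 had the smallest p for the interaction (-1.28, SE 0.51) at about 1 CPM. At an unadjusted p under 0.05, 1 was higher and 1 lower for size, 1 higher and 2 lower for diet, and 0 higher and 1 lower for the interaction.

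Arachidonic acid, the fatty acid of both messengers, is set free, elongated, activated and carried by the next list, of which 13 of 14 genes were tested and 0 called. ACSL4, which activates arachidonic acid for re-esterification, averaged 61.1 CPM in SGA and 53.2 CPM in AGA piglets (0.16, SE 0.061, FDR-adjusted p = 0.642). FADS1, the desaturase that makes arachidonic acid and lies within 100 kilobases of DAGLA, was the other gene at an unadjusted p under 0.05 for size (0.16, SE 0.074). The brain fatty acid carrier FABP7 had the smallest p for diet (-0.18, SE 0.061, FDR-adjusted p = 0.585), and ELOVL2, an elongase of polyunsaturated fatty acids, for the interaction (0.21, SE 0.11).

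The one gene called in these lists was an eicosanoid enzyme. PTGDS, which makes prostaglandin D2 from a product of arachidonic acid, fell in SGA piglets by 0.28 on the log2 scale (SE 0.058, FDR-adjusted p = 0.224 by edgeR), with means of 164 CPM in SGA and 194 CPM in AGA piglets. For diet it was at 190 CPM on HF and 168 CPM on CON (0.21, SE 0.058, FDR-adjusted p = 0.448). Of the 11 enzymes in this list 1 was called for size and 0 for diet or the interaction, for which PTGES, a prostaglandin E synthase, had the smallest p (0.42, SE 0.31). PTGDS is known from oligodendrocytes and meninges as well, and the lower oligodendrocyte sums in SGA piglets given above stand beside this value, while their part in it was not tested.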

How the data were processed

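RNA from dissected hippocampal tissue was made into stranded libraries, 1 per piglet. Per the study's methods, reads were trimmed (Trimmomatic 0.33) and aligned with STAR 2.5.2a to the Sus scrofa 10.2 genome. Reads were counted over exons, by strand, with featureCounts of Subread 1.5.0. The deposited values are whole-number counts per Entrez gene, not normalized. Entries without a gene identifier held 0.613% to 1.62% of reads and were left out. Symbols were looked up by gene identifier in RefSeq's table for Sscrofa11.1 (23036 of 38882 genes matched), which served for names only.

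Counts were TMM-normalized and genes that did not reach 1 CPM in at least 3 libraries were removed. The fit was edgeR 4.0.16 quasi-likelihood (R 4.3.3) on the 4 groups, sex and 5 surrogate variables (sva 3.50.0), with Benjamini-Hochberg adjustment over 7 contrasts. Calls were made at FDR under 0.4, which the study's methods give for the genes of its heat map and describe as larger than usual. At FDR under 0.05 no gene of the cycle was called. limma 3.58.1 (voom), DESeq2 1.42.0, other scaling, filters, covariates, single cohorts and left-out libraries were alternatives. The code was tested on simulated counts. Exact permutation tests enumerated 4096 sign flips over 12 pairs or 924 splits of 12 litters, two-sided, on log2 CPM (prior count 2), with smallest possible p of 0.000488 and 0.00216.

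The labels place same-numbered SGA and AGA piglets of a diet in one litter; their deviations from group means correlated by 0.154 on average (0.014 to 0.329), above 0.1 in 9 of 12 pairs. Siblings are separate animals. For size and interaction, the exact permutation p-values rest on the spread of pair differences over litters. For diet, cohort and sex they rest on the spread of litter means. The p-values of the edgeR, DESeq2 and limma voom fits rest on the spread between libraries (or summed litters) that the fit leaves. All 8 genes were named, and from each list each called gene and the gene with the smallest p per contrast; FADS1, CAMK2A and the DAGLA to MGLL ratio were added after values were seen. Likeness was the Spearman correlation over 24 libraries after group means were removed, with 2 genes named per member. One oligodendrocyte marker is not reported here. The genes, lists and markers were chosen with earlier results of these data known.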

Additional observations from a re-analysis of the deposited data

Results flagged for a closer look

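In 6 of the 28 gene and group combinations with reads (7 genes, 4 groups of 6 piglets), 1 piglet stood apart from the other 5 by Dixon's criterion, which chance meets in about 1 in 20 groups. CNR1 was at 0.903 CPM in SGA CON replicate 4, against 1.5 to 1.82 CPM in the others. DAGLB was at 18.4 CPM in AGA HF replicate 2, against 14.3 to 15.7 CPM, and at 22.3 CPM in SGA CON replicate 1, against 15.5 to 17.6 CPM. ABHD6 was at 50.2 CPM in AGA CON replicate 2, one of the libraries with low neuron markers, against 63.4 to 70.3 CPM. FAAH was at 170 CPM in AGA CON replicate 5, against 127 to 140 CPM, and at 175 CPM in AGA HF replicate 5, against 129 to 146 CPM; both are cohort 2 piglets. The size difference of no gene differed between diets by the exact permutation test.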

How the results depend on the processing

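For size, 0 of 7 genes were called by edgeR in the main fit, against 0.478% of all genes. The count was 1 (DAGLA) with DESeq2 (1.29% of all genes) and with litter as replicate block (2.57%). DAGLA was also called without the filter on low counts and with each contrast adjusted alone. For the latter settings, the pairwise alternatives and the left-out libraries below, the share of all genes called was not counted. The block changed no other call. For the 4 pairwise comparisons the count was 0, and 1 (DAGLA, SGA against AGA on HF) with DESeq2, without the filter and with each contrast adjusted alone. The cohort and sex count of 1 became 0 in the fit without cohort, which has no cohort contrast. Leaving out each library in turn gave counts of 0 to 1 for size, 0 to 1 for diet, 0 to 1 for the interaction, 0 to 2 for the pairwise comparisons and 0 to 2 for cohort and sex. The FAAH cohort call was lost without AGA HF replicates 1, 3 or 5, AGA CON replicates 2, 3 or 5, SGA HF replicates 1 to 5, and SGA CON replicates 2 to 4.

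None of the estimates that changed sign was called in any fit. In cohort 1 alone the size difference was 0.18 for CNR1, -0.11 for DAGLB, -0.062 for MGLL and -0.055 for ABHD6, and the interaction -0.070 for DAGLA, -0.20 for DAGLB and -0.093 for ABHD6. In cohort 2 alone the size difference of MGLL was -0.042, and the diet difference -0.48 for CNR1 and -0.10 for ABHD6. MGLL size was also -0.046 with sex only, -0.046 with sex and cohort, and -0.039 with the litter block. With AGA CON replicate 2 and AGA HF replicate 4 left out (chosen after seeing the data, as were the tests without litters), the DAGLB interaction was -0.018 and ABHD6 size -0.0092. Left-out libraries gave ranges of -0.037 to 0.25 (CNR1 diet), -0.37 to 0.54 (CNR1 interaction), -0.047 to 0.10 (DAGLB size), -0.031 to 0.14 (DAGLB interaction), -0.015 to 0.044 (MGLL size), -0.033 to 0.045 (ABHD6 size), -0.0088 to 0.079 (ABHD6 diet) and -0.018 to 0.11 (ABHD12 diet). The cause was not tested. Few reads limit CNR1, for which counting alone gives a coefficient of variation of 27.3%.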
